A study of Mus musculus with 39 samples.

Results

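Sorted monocytic myeloid-derived suppressor cells from the spleens of APCmin/+ mice were compared with the same labelled sort from the spleens of immune-deficient BALB/c mice. The comparison holds the 6 libraries that the labels place in these groups, 3 from APCmin/+ mice and 3 from BALB/c mice, out of 39 libraries in 13 groups in all. Every gene with at least 1 TPM, the share of a library's transcripts scaled to 1000000, in at least 3 of the 6 libraries was tested, which gave 14236 genes of the 53465 in the table. The APCmin allele is a truncating mutation of Apc, the tumour suppressor that restrains Wnt signalling, and mice carrying 1 copy develop intestinal adenomas. The BALB/c group is labelled only as immune-deficient, and neither the allele behind the deficiency nor the background strain of the APCmin/+ mice is named in the labels. The labels and protocols name no sort markers, ages, sexes or treatments. Strain, Apc genotype and immune status therefore go together, and their parts in any difference cannot be told apart. Nothing in the labels says whether the 3 libraries of a group came from separate animals, so p-values measure only the spread between these libraries, which may be technical.

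Myeloid-derived suppressor cells are immature myeloid cells that accumulate in tumours, infection and chronic inflammation and restrain T cell responses. In mice they are divided by surface Ly6C and Ly6G into a monocytic and a granulocytic kind. Monocytic cells carry receptors such as Ccr2 and Csf1r and the transcription factors Irf8 and Klf4, while the granulocytic line uses Cebpe and Gfi1 and fills its secondary granules with proteins such as lactoferrin. The mouse spleen is itself a blood-forming organ, in which erythroid and granulocytic precursors divide under stress.

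In the monocytic sorts of APCmin/+ mice, 16 of 24 secondary and tertiary granule genes, 15 of 25 mature neutrophil genes, 13 of 19 erythroid genes and 23 of 24 G2/M genes were higher than in those of BALB/c mice. The lists and their members were chosen with earlier results of these data known, so such counts are descriptions and not tests. Of the 14236 genes, 733 were higher in APCmin, or 5.15%, and 844 were lower, or 5.93%, at a Benjamini-Hochberg adjusted p under 0.05 by limma and a difference of at least 2-fold on log2(TPM + 1). The median log2 fold change of all tested genes was -0.228, so a gene lower by that much stood at the middle of the table. Rescaling each library by its median ratio moved this median to -0.034 and gave 800 higher and 516 lower genes, so that 60.8% of the called genes were higher, against 46.5% on the deposited scale. Left out 1 at a time, the BALB/c libraries gave between 280 and 311 higher genes and between 408 and 465 lower genes, and leaving out APCmin library 1 gave 904 and 1274. The APCmin libraries were less alike than the BALB/c libraries, with correlations across genes of 0.948 to 0.961 within APCmin and 0.979 to 0.985 within BALB/c. APCmin library 2 lay farthest from the BALB/c libraries (0.845 to 0.847), while APCmin libraries 1 and 3 correlated with them at 0.9 to 0.916. Because TPM values keep no read counts, the depth of each library is unknown.

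The 4 marker genes set for these sorts separated the groups in every library. S100a8, which encodes a subunit of the calprotectin complex of myeloid cells (GRCm38 chromosome 3, 90668978 to 90670035), was at 9300, 32700 and 25440 TPM in the APCmin libraries, against 1310, 1754 and 1339 TPM in the BALB/c libraries. Ltf, the gene of lactoferrin in secondary granules (chromosome 9, 111019271 to 111042767), was at 3240, 9921 and 8207 TPM in APCmin and at 351, 459 and 244 TPM in BALB/c. Ccna2, which encodes the cyclin A2 of S phase and mitosis (chromosome 3, 36564865 to 36572150), was at 49.97, 109.8 and 45.39 TPM in APCmin and at 9.74, 12.7 and 9.15 TPM in BALB/c. For these 3 genes every APCmin library lay above every BALB/c library, and APCmin library 2 was the highest of the 6. Their log2 fold changes were 3.76 ± 0.48 for S100a8 (standard error, 3 libraries each; limma, adjusted p = 0.00431), 4.23 ± 0.45 for Ltf (adjusted p = 0.00215) and 2.49 ± 0.34 for Ccna2 (adjusted p = 0.0058). Ly6c1, a gene of the Ly6C surface antigen (chromosome 15, 75044018 to 75048830), went the other way, at 1.28, 2.34 and 4.53 TPM in APCmin against 613, 545 and 869 TPM in BALB/c. All 3 APCmin libraries lay far below the BALB/c libraries, with a log2 fold change of -7.57 ± 0.34 (adjusted p = 3.49e-05). Together S100a8 and its partner S100a9 made up 2.37%, 8.25% and 6.38% of all TPM in the APCmin libraries, against 0.348%, 0.447% and 0.351% in the BALB/c libraries.

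**Figure D1:**
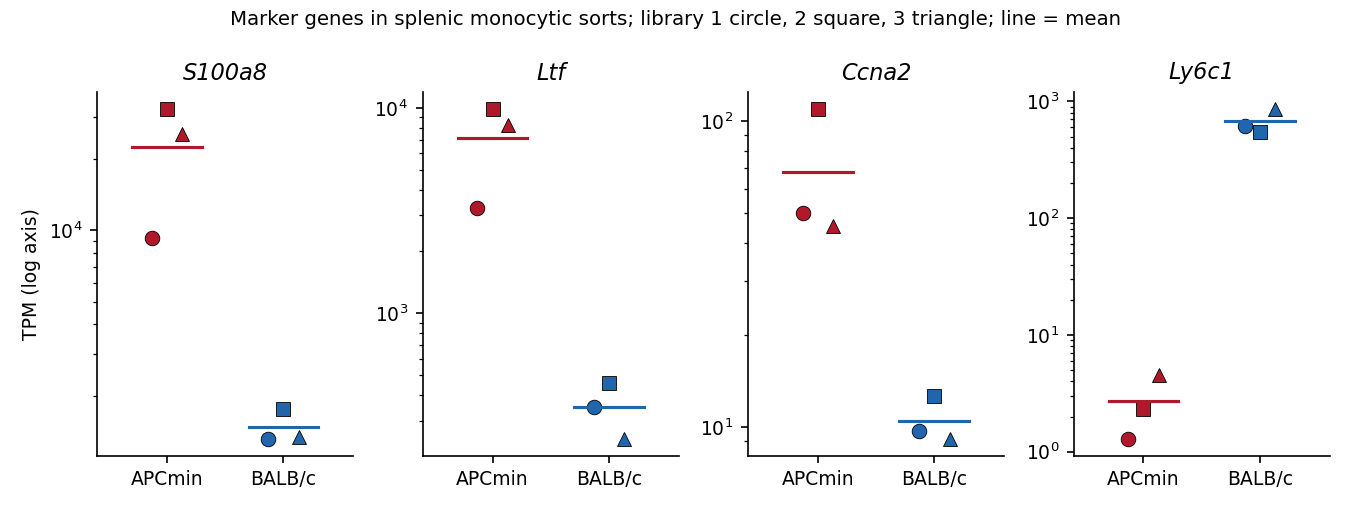
TPM of the 4 marker genes (log axes, 1 panel a gene) in the 3 APCmin and the 3 BALB/c libraries of splenic monocytic sorts; points are libraries and lines are group means. S100a8, Ltf and Ccna2 are higher in every APCmin library and Ly6c1 is lower in every one.

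The sequences before the start sites of S100a8 and Ltf are shown because both transcripts were abundant in the APCmin sorts and moved together. They are the 250 bases upstream of the start in RefSeq's GRCm38.p6 table, read 5′ to 3′ on the gene's strand. The S100a8 window lies at chr3:90668821-90669070, plus strand, and that of Ltf at chr9:111019042-111019291, plus strand. The gene spans given above come from another annotation, GENCODE, and begin before these windows end, so the windows reach into those spans. Capitals mark matches to TTNNGNAA, a form of the site bound by C/EBP factors, searched on both strands.
S100a8: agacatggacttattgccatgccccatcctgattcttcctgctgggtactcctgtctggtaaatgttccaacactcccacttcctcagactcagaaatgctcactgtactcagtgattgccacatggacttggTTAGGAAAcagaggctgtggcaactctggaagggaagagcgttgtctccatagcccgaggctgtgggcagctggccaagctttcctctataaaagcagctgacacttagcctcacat
Ltf: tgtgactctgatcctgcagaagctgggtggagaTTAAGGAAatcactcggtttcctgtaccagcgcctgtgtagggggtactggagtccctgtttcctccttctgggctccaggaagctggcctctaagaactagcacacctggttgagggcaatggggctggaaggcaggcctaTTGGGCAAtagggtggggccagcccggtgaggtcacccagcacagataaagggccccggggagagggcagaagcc
The S100a8 window held 1 match and the Ltf window 2, and 36.9% of all 27025 promoters in the table held at least 1. Among secondary and tertiary granule genes 12 of the 21 with a promoter in the table held the motif, or 57.1%, and among mature neutrophil genes 16 of 25, or 64.0%. These 16 include several members of the same gene families, counted separately. A match describes the letters only.

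Genes of the later neutrophil granules were mostly higher. Of the 24 secondary and tertiary granule genes, all of which passed the filter, 16 were higher in APCmin and 0 were lower. Over all genes the shares were 5.15% and 5.93%. The list's median log2 fold change was 2.59 against -0.228 over all genes. Mmp9, the gelatinase of tertiary granules, was at 147, 1223 and 624 TPM in APCmin and at 14.2, 9.59 and 18.7 TPM in BALB/c. Lcn2, which encodes the iron-siderophore binder lipocalin 2, was at 2231, 6765 and 5774 TPM in APCmin and at 253, 275 and 183 TPM in BALB/c. Itgb2l, a beta integrin gene of neutrophils, was at 75.7, 232 and 184 TPM in APCmin and at 4.54, 5.91 and 3.63 TPM in BALB/c. None of these genes overlapped between the groups, and in each of them APCmin library 1 was the lowest of its group. The log2 fold changes were 5.04 ± 0.72 for Mmp9 (adjusted p = 0.00692), 4.24 ± 0.42 for Lcn2 (adjusted p = 0.00163) and 4.73 ± 0.41 for Itgb2l (adjusted p = 0.000848). Wfdc21, a small secreted protein gene, rose by 3.62 ± 0.45 (adjusted p = 0.00425). Ly6g, the gene of the Ly6G surface antigen, rose by 3.39 ± 0.57 (adjusted p = 0.012), a call lost without BALB/c library 2 (adjusted p = 0.0574) or 3 (0.0519). The 24 genes summed to 25050, 55510 and 58390 TPM in APCmin, against 15750, 14920 and 19160 TPM in BALB/c (exact permutation test, two-sided p = 0.1, the smallest that 3 against 3 libraries can give). These sums include Lyz2, which is also in the classical monocyte list, and Lcn2 at 183 to 275 TPM was a small part of them in BALB/c. The number of higher genes was 11, 11 and 9 without BALB/c libraries 1, 2 and 3 in turn, and between 14 and 19 without an APCmin library.

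Primary granule genes, made earlier in the promyelocyte, gave 1 call. Of 9 tested, Prss57, a serine protease gene named after its values were seen, was higher and 0 were lower, with a median of 0.68. Among all 14236 genes the shares were 5.15% higher and 5.93% lower. Prss57 lost its call without each BALB/c library (adjusted p = 0.119, 0.0515 and 0.1) and without APCmin library 2 (0.075) or 3 (0.0648). Ctsg, which encodes the serine protease cathepsin G, was at 2.88, 33.3 and 6.43 TPM in APCmin and at 1.99, 5.41 and 3.81 TPM in BALB/c, so the groups overlapped (log2 fold change 1.14 ± 0.77, adjusted p = 0.294). The 9 genes summed to 697.5, 1011 and 826 TPM in APCmin and to 783, 848 and 845 TPM in BALB/c. The difference between primary and later granule genes was not itself tested.

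Genes of mature neutrophils were higher as well, with more spread among the APCmin libraries. Of 25 tested out of 26, 15 were higher and 0 were lower, beside 5.15% and 5.93% over all genes, with a median of 2.37. Cxcr2, the receptor that draws neutrophils towards CXC chemokines, was at 55.5, 391 and 339 TPM in APCmin and at 7.88, 3.69 and 13.8 TPM in BALB/c. Il1r2, a decoy receptor for interleukin 1, was at 20.2, 131 and 115 TPM in APCmin and at 1.35, 1.64 and 2.47 TPM in BALB/c. Hdc, which encodes histidine decarboxylase and is also used by basophils, was at 59.2, 406 and 322 TPM in APCmin and at 5.88, 5.41 and 7.43 TPM in BALB/c. In all 3 genes APCmin library 1 lay nearest to BALB/c, yet above each of its libraries. Their log2 fold changes were 4.53 ± 0.79 for Cxcr2 (adjusted p = 0.0136), 4.63 ± 0.68 for Il1r2 (adjusted p = 0.00738) and 4.79 ± 0.68 for Hdc (adjusted p = 0.00665). Trem1, an activating receptor, rose by 3.4 ± 0.57 (adjusted p = 0.0122), a call lost without each BALB/c library (adjusted p = 0.0514, 0.0561 and 0.051). Without BALB/c libraries 1, 2 or 3 only 4, 3 and 4 genes of this list were called, and without APCmin library 1 there were 23. In those fits Cxcr2 had adjusted p-values of 0.0517 without BALB/c library 1 and 0.0593 without library 2. The whole list summed to 1919, 9099 and 6409 TPM in APCmin and to 1463, 1436 and 1397 TPM in BALB/c (exact permutation p = 0.1). Fewer cells of a type and less RNA per cell cannot be told apart in such bulk samples.

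The transcription factors of the 2 myeloid lines differed in opposite directions. Cebpe, which drives secondary granule genes, was at 56.9, 93.8 and 123 TPM in APCmin and at 17.9, 19.2 and 14.3 TPM in BALB/c, with no overlap (log2 fold change 2.29 ± 0.28, adjusted p = 0.00395). Gfi1, a repressor needed for neutrophil development, rose by 1.04 ± 0.21 (adjusted p = 0.0205). Gfi1 lost its call without each BALB/c library (adjusted p = 0.0911, 0.0507 and 0.0734) and fell short of 2-fold without APCmin library 3. Klf4, a factor of monocyte development, was at 11.01, 5.39 and 20.26 TPM in APCmin and at 34.0, 37.5 and 41.1 TPM in BALB/c, and fell by 1.71 on the log2 scale (standard error 0.40, adjusted p = 0.033). Irf8, which favours monocytes over neutrophils, was at 190, 85.7 and 156 TPM in APCmin and at 286, 305 and 257 TPM in BALB/c, and fell by 1.04 (standard error 0.28, adjusted p = 0.0455). In both monocyte factors APCmin library 2 was the lowest and the groups did not overlap. The Cebpe call held without each of the 6 libraries, whereas Klf4 lost its call without any 1 of the BALB/c libraries (adjusted p = 0.102, 0.109 and 0.1) and after rescaling by median ratio (adjusted p = 0.0545). Irf8 lost its call after rescaling (adjusted p = 0.083), without APCmin library 2 or 3, where the fold fell short or the adjusted p was 0.0606, and without each BALB/c library (0.136, 0.143 and 0.104). Of the 20 myeloid factors tested, 2 were higher and 2 were lower, beside 5.15% and 5.93% over all genes.

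Monocyte genes were at lower values in most APCmin libraries, but few passed the test. Of 23 classical monocyte genes tested, 0 were higher and 3 were lower (all genes, 5.15% and 5.93%), namely Klf4, Irf8 and Gpr141. The list's median log2 fold change was -1.17. Ccr2, the chemokine receptor that brings monocytes out of the marrow, was at 89.9, 30.15 and 296 TPM in APCmin and at 467, 368 and 752 TPM in BALB/c. Fn1, which encodes fibronectin, was at 118.5, 26.6 and 343 TPM in APCmin and at 570.5, 482 and 749.6 TPM in BALB/c. Cx3cr1, the fractalkine receptor of non-classical monocytes, was at 29.9, 4.48 and 57.5 TPM in APCmin and at 117, 97.2 and 99.5 TPM in BALB/c. These groups did not overlap, yet the spread among the APCmin libraries was wide, with library 2 lowest and library 3 nearest to BALB/c. The log2 differences were -2.42 ± 0.76 for Ccr2 (adjusted p = 0.0632), -2.50 ± 0.83 for Fn1 (adjusted p = 0.0703) and -2.29 ± 0.79 for Cx3cr1 (adjusted p = 0.0778). Without APCmin library 3 the adjusted p-values were 0.0166, 0.0215 and 0.0361, and 11 classical monocyte genes were called lower. Leaving out a BALB/c library gave 0, and so did rescaling by median ratio. The list summed to 9314, 8349 and 18900 TPM in APCmin and to 18400, 16220 and 24520 TPM in BALB/c, which overlapped. Of 12 non-classical monocyte genes, 0 were called in either direction by limma, 6 had an unadjusted p under 0.05, and their median was -0.93.

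Dendritic cell genes were partly lower. Of 16 tested, 5 were lower and 0 were higher, beside 5.93% and 5.15% over all genes, with a median of -0.83. Siglech, a receptor of plasmacytoid dendritic cells, was at 5.24, 4.55 and 5.74 TPM in APCmin and at 31.7, 29.2 and 44.2 TPM in BALB/c, with no overlap (log2 fold change -2.53 ± 0.19, adjusted p = 0.000489). Ccr9, a homing receptor also used by plasmacytoid cells, fell by 1.33 (standard error 0.19, adjusted p = 0.00651). Both calls held without each of the 6 libraries. Cd209a, a lectin gene of monocyte-derived dendritic cells, fell by 1.56 (standard error 0.28, adjusted p = 0.0144), a call lost without BALB/c library 1 (adjusted p = 0.0654) or 3 (0.0623). Batf3 and Cst3 were the other lower members. Rescaling by median ratio left 3 calls, and leaving out BALB/c libraries 1, 2 and 3 left 2, 3 and 2.

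**Figure D2:**
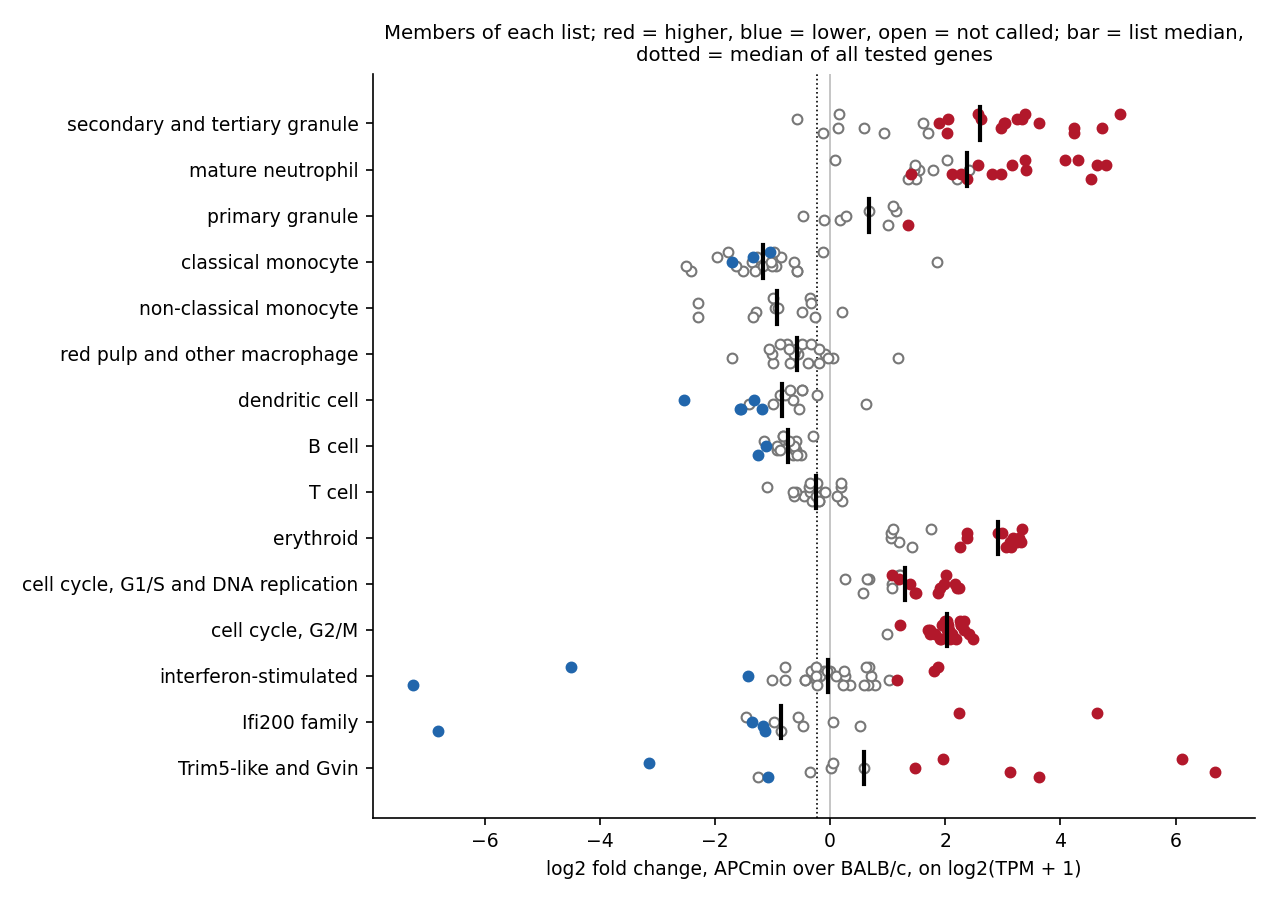
Log2 fold change of each tested member of 15 gene lists, APCmin over BALB/c, in splenic monocytic sorts; filled points were higher (red) or lower (blue) by limma, open points were not called, bars are list medians and the dotted line is the median of all genes. Granule, neutrophil, erythroid and G2/M members lie to the right, and classical monocyte members lie to the left with 3 called.

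Genes of cell division rose together in APCmin. Of 24 G2/M genes, 23 were higher and 0 were lower, beside 5.15% and 5.93% over all genes, with a median of 2.03. Cdk1, the kinase that starts mitosis, was at 56.4, 107 and 50.4 TPM in APCmin and at 11.6, 16.5 and 11.6 TPM in BALB/c. Ccnb1, its cyclin B1 partner, was at 37.4, 79.5 and 36.4 TPM in APCmin and at 7.45, 9.41 and 7.73 TPM in BALB/c. APCmin library 2 was the highest for both, and the groups did not overlap. The log2 fold changes were 2.28 ± 0.30 for Cdk1 (adjusted p = 0.00514) and 2.41 ± 0.31 for Ccnb1 (adjusted p = 0.00453). Ube2c, a ubiquitin carrier that helps degrade cyclins, Kif11, a spindle motor, and Birc5, the gene of survivin, rose by 2.33, 2.32 and 2.27 (standard errors 0.24, 0.26 and 0.29; adjusted p = 0.00176, 0.00262 and 0.00458). The 24 genes summed to 887, 1721 and 917 TPM in APCmin and to 239.5, 293 and 237 TPM in BALB/c (exact permutation p = 0.1). Between 20 and 24 of them were called without any 1 of the 6 libraries.

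Of 20 genes of G1/S and DNA replication, 12 were higher and 0 were lower, beside 5.15% and 5.93% over all genes. Their median was 1.30. Rrm2, a subunit of ribonucleotide reductase, rose by 2.20 ± 0.32 (adjusted p = 0.00738). The sums were 1006, 1874 and 733 TPM in APCmin and 463, 523 and 429 TPM in BALB/c. Without BALB/c libraries 1, 2 and 3 the number called was 2, 3 and 1.

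The upstream sequence of Cdk1 (chr10:69352913-69353162, minus strand) is shown as an example of the mitotic genes, with capitals for CCAAT and for TTTGAA, a motif known as the cell cycle homology region, on either strand.
Cdk1: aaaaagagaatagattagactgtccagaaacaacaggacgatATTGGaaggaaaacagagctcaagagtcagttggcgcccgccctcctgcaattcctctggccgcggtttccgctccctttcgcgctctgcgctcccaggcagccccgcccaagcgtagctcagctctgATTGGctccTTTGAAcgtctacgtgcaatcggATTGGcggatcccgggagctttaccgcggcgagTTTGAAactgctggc
It held 3 CCAAT matches, all on the reverse strand, and 2 TTTGAA matches. CCAAT was found in 17 of the 19 G2/M genes with a promoter in the table, or 89.5%, against 34.5% of all promoters, and TTTGAA in 7 of 19, or 36.8%, against 16.3%.

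Red cell precursor genes were higher, most of all in APCmin libraries 1 and 2. Of 19 erythroid genes tested, 13 were higher and 0 were lower, beside 5.15% and 5.93% over all genes, with a median of 2.92. Klf1, the master factor of red cell genes, was at 38.05, 109.96 and 19.45 TPM in APCmin and at 3.71, 2.70 and 4.25 TPM in BALB/c. Car1, an erythroid carbonic anhydrase, was at 164, 539 and 124 TPM in APCmin and at 20.35, 23.2 and 24.67 TPM in BALB/c. Rhd, a Rh blood group membrane protein gene, was at 44.2, 126 and 15.6 TPM in APCmin and at 3.33, 2.94 and 4.45 TPM in BALB/c. APCmin library 2 was the highest and library 3 the lowest of the group in each gene, with no overlap. The log2 fold changes were 3.31 ± 0.57 for Klf1 (adjusted p = 0.0132), 3.24 ± 0.51 for Car1 (adjusted p = 0.00953) and 3.33 ± 0.67 for Rhd (adjusted p = 0.0215). The whole list, which includes globins, summed to 25460, 25170 and 5894 TPM in APCmin and to 7374, 3828 and 8187 TPM in BALB/c, so these sums overlapped. Without any 1 of the BALB/c libraries only 1 erythroid gene was called, Car1 keeping its call in each of those fits, and without APCmin library 3 all 19 were called. Klf1 had adjusted p-values of 0.0509, 0.0617 and 0.0536 without BALB/c libraries 1, 2 and 3, and Rhd had 0.0782, 0.085 and 0.0699.

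The sequence before Rhd (chr4:134864286-134864535, plus strand) is printed with capitals for AGATAA, a form of the GATA factor site, on either strand.
Rhd: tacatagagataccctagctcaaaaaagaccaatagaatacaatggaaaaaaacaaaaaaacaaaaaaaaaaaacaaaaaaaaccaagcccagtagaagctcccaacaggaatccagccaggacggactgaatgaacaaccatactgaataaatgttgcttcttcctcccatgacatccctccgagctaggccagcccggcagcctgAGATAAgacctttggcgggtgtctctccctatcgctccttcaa
This motif was in 5 of 14 erythroid genes with a promoter in the table, or 35.7%, against 10.3% of all promoters.

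Transcripts of other cells of the spleen were also present in both groups, and their part in these differences was not tested. The 18 B cell genes, led by immunoglobulin chains, summed to 56050, 30450 and 22450 TPM in APCmin and to 60090, 55450 and 58490 TPM in BALB/c. Iglc2 and Bach2 were the 2 members called lower, both calls lost without each BALB/c library (adjusted p between 0.093 and 0.145). Higher calls numbered 0, beside 5.15% higher and 5.93% lower over all genes of the monocytic sorts. Ighm, the heavy chain of IgM, was at 15130, 8095 and 5785 TPM in APCmin and at 17170, 17250 and 16320 TPM in BALB/c (log2 fold change -0.92 ± 0.39, adjusted p = 0.126), and it was called lower without APCmin library 1 (adjusted p = 0.0106). APCmin library 1 was near the BALB/c level in B cell genes and lowest of its group in granule genes. The 20 macrophage genes, most of them typical of red pulp, summed to 10420, 2888 and 6362 TPM in APCmin and to 10180, 9631 and 7662 TPM in BALB/c, and 0 were called in the monocytic sorts by limma, with 3 at an unadjusted p under 0.05. In the granulocytic sorts 17 of them were lower in APCmin, where 3.23% of 14160 genes were higher and 7.66% were lower. Of 19 T cell genes 0 were called by limma and 2 had an unadjusted p under 0.05, with summed levels of 353, 509.8 and 647.5 TPM in APCmin and 536, 924 and 394 TPM in BALB/c. The sorts labelled as monocytic therefore held granule, B cell and macrophage transcripts beside their monocyte genes in both kinds of mouse. The granule and classical monocyte lists share Lyz2, so their sums are not separate.

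**Figure D3:**
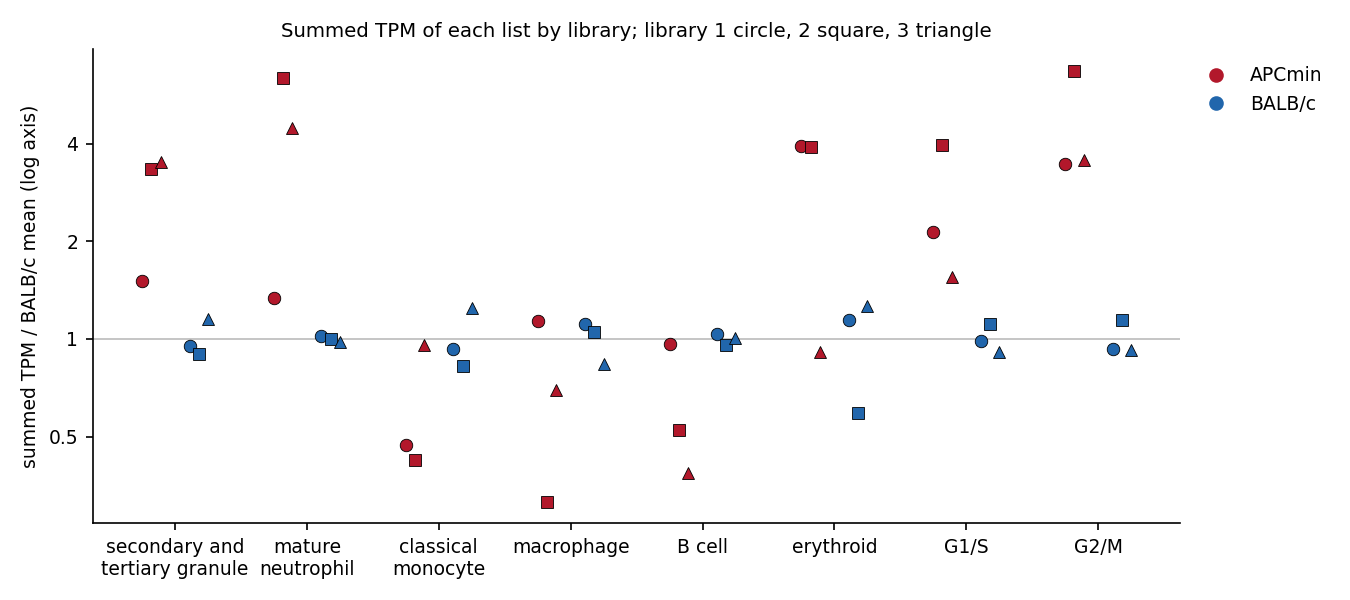
Summed TPM of 8 lists in each library, divided by the BALB/c mean of the list (log axis), with APCmin left of BALB/c in each pair. G2/M genes are higher in all 3 APCmin libraries, while APCmin libraries 1, 2 and 3 differ among themselves in erythroid, B cell, macrophage and monocyte sums.

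The fall of Ly6c1 did not extend to its neighbour Ly6c2, the second gene of the Ly6C antigen, which was named after its values were seen. Ly6c2 was at 523, 738 and 1158 TPM in APCmin and at 677, 587 and 932 TPM in BALB/c, so the groups overlapped (log2 fold change 0.09 ± 0.32, adjusted p = 0.844). Ly6c1 supplied 0.244%, 0.316% and 0.39% of the pair's TPM in APCmin monocytic sorts, against 47.5%, 48.1% and 48.2% in BALB/c. The same split appeared in the granulocytic and combined sorts, with 0.246% to 1.52% in the 6 APCmin libraries and 45.0% to 51.1% in the 6 BALB/c libraries. In each of those sorts, unlike the monocytic ones, Ly6c2 was higher in every APCmin library than in every BALB/c library. A stretch of 75 bases, the read length, was shared with transcripts of another gene at 19.0% of the positions of Ly6c1 and at 9.5% of those of Ly6c2, so RSEM had to divide some reads between them.

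The aligned upstream sequences of Ly6c1 (chr15:75048838-75049087, minus strand) and Ly6c2 (chr15:75111972-75112221, minus strand) show how alike the pair is, with capitals marking bases that differ or have no partner in a global alignment. Each gene has 2 starts in the table, and the pair of starts that aligned best is shown.
Ly6c1: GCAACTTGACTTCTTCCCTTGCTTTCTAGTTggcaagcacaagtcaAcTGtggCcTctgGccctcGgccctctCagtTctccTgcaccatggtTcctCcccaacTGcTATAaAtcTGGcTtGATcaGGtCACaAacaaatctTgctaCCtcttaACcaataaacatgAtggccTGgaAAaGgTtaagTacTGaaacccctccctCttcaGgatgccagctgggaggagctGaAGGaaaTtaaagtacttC
Ly6c2: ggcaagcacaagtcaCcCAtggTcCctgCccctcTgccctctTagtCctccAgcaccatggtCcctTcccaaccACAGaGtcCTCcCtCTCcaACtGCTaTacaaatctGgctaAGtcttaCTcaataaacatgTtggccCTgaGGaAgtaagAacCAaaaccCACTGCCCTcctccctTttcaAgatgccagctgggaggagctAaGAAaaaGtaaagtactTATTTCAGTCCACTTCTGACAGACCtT
Of 284 alignment columns 164 were identical, or 57.7%, 52 held a substitution and 68 a gap.

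**Figure D4:**
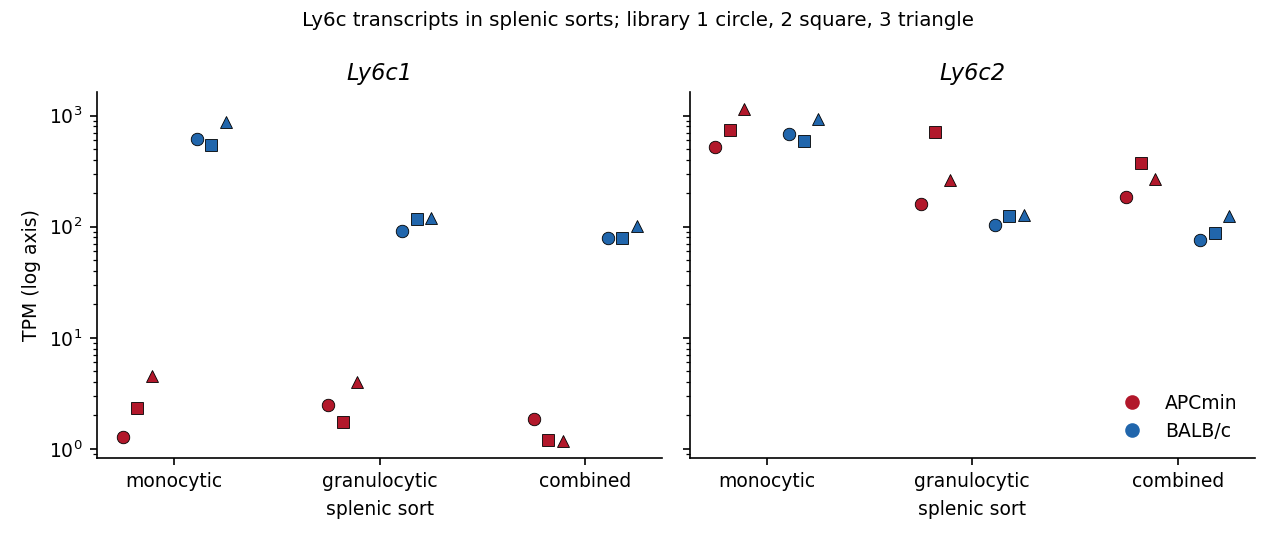
TPM of Ly6c1 and Ly6c2 (log axis) in the 3 libraries of each splenic sort, with APCmin left of BALB/c. Ly6c1 is below 5 TPM in all 9 APCmin libraries and above 75 TPM in all 9 BALB/c libraries, while Ly6c2 overlaps in the monocytic sorts.

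Single members of the Ly6 and MHC families, which are known to vary between inbred mouse strains, were far apart between the groups. Of 12 class II genes 1 was higher and 1 was lower, and of 15 class I genes 1 was higher and 0 were lower, beside 5.15% higher and 5.93% lower over all genes. In the Ly6 list 3 of 10 genes were higher and 1 was lower. Ly6a, the gene of the Sca-1 antigen, was at 314, 146 and 171 TPM in APCmin and at 31.9, 36.0 and 42.0 TPM in BALB/c (log2 fold change 2.42 ± 0.29, adjusted p = 0.00335). H2-Ea-ps, the class II E alpha chain gene, annotated as a polymorphic pseudogene, was at 0, 0.36 and 0 TPM in APCmin and at 1895, 2047 and 1822 TPM in BALB/c (log2 fold change -10.76 ± 0.16, adjusted p = 8.35e-07). H2-Eb2, an E beta-like chain gene, was at 36.0, 17.7 and 20.9 TPM in APCmin and at 5.74, 6.33 and 5.26 TPM in BALB/c (log2 fold change 1.87 ± 0.27, adjusted p = 0.00673). H2-Q1 and H2-Q2, class I genes, fell by 4.48 (standard error 0.18, adjusted p = 2.25e-05) and 4.65 (standard error 0.26, adjusted p = 0.000112), while H2-Q7 rose by 1.06 ± 0.21 (adjusted p = 0.0205). Ighg2c, an IgG constant region carried by some strains, was at 367, 592 and 439 TPM in APCmin and at 78.4, 109.7 and 71.1 TPM in BALB/c (log2 fold change 2.41 ± 0.23, adjusted p = 0.00135). Apart from H2-Q7, which lost its call without BALB/c library 1 or 3 (adjusted p = 0.0883 and 0.0769) and, for want of 2-fold, without APCmin library 1, these calls held without each of the 6 libraries.

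The Trim5-like and Gvin genes, relatives of a restriction factor and a large interferon-inducible GTPase, held Trim12a and Gvin1, the first genes by size among those named for their increase. Of 13 tested, 6 were higher and 2 were lower, beside 5.15% and 5.93% over all genes. Trim12a was at 130.1, 124.5 and 147 TPM in APCmin and at 0.82, 0.21 and 0.02 TPM in BALB/c (log2 fold change 6.68 ± 0.23, adjusted p = 1.03e-05). Gvin1 was at 81.7, 39.6 and 97.9 TPM in APCmin and was listed at 0 in all 3 BALB/c libraries (adjusted p = 8.92e-05). Trim34b went the other way, at 2.03, 0.99 and 1.45 TPM in APCmin and at 19.8, 22.2 and 19.9 TPM in BALB/c (log2 fold change -3.14 ± 0.20, adjusted p = 0.000192). Gm4070 was the other lower gene, named after its values were seen. It lost its call without each BALB/c library (adjusted p = 0.119, 0.132 and 0.126), without APCmin library 1 (0.0595), for want of 2-fold without APCmin library 2, and after rescaling (0.0941). Of the 75-base positions of Gvin1, 97.5% were also in Gm4070. For Gvin1 98.3% of 75-base positions, and for Trim34b 42.5%, were found in another gene's transcripts, so those values are uncertain, while for Trim12a the share was 5.2%.

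The Ifi200 family, DNA sensors and their relatives, was split in the same way, with 2 of 13 genes higher and 4 lower. Over all genes 5.15% were higher and 5.93% were lower. Ifi213 was at 118, 47.2 and 107 TPM in APCmin and at 2.19, 2.90 and 2.27 TPM in BALB/c (log2 fold change 4.63 ± 0.35, adjusted p = 0.000422). Ifi202b was listed at 0 in all 3 APCmin libraries and was at 104, 83.8 and 162 TPM in BALB/c (adjusted p = 1.26e-05). Of 32 interferon-stimulated genes 3 were higher and 3 were lower, beside the same shares over all genes. The list thus did not move as 1 block. Ifi44l was listed at 0 in all APCmin libraries and was at 124, 124 and 220 TPM in BALB/c (adjusted p = 1.01e-05). Ifi44 was at 5.06, 1.47 and 5.85 TPM in APCmin and at 87.1, 82.5 and 160 TPM in BALB/c (log2 fold change -4.50 ± 0.44, adjusted p = 0.00149). Ifi44 and Ifi44l shared no 75-base position with another gene. All such positions, here and above, are those of reference transcripts. How well the reads of either kind of mouse match the reference was not tested. Rsad2, the antiviral protein viperin, rose by 1.88 ± 0.32 (adjusted p = 0.0124), a call lost without BALB/c library 1 (adjusted p = 0.051) or 2 (0.0588).

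The other genes named for the size of their change had varied roles. Vill, a villin-like actin-binding protein gene, was at 28.1, 42.2 and 55.4 TPM in APCmin and at 0.14, 0.34 and 0 TPM in BALB/c (log2 fold change 5.17 ± 0.27, adjusted p = 7.92e-05). Col6a4 and Postn, matrix genes, fell by 4.51 each (standard errors 0.18 and 0.37, adjusted p = 2.29e-05 and 0.000702). H60b, a ligand of the natural killer receptor NKG2D, fell by 4.60 (standard error 0.16, adjusted p = 1.01e-05). Ccl24, the chemokine eotaxin 2, was at 9.99, 1.78 and 5.23 TPM in APCmin and at 97.5, 83.1 and 123 TPM in BALB/c (log2 fold change -4.13 ± 0.47, adjusted p = 0.00293). Dynlt1a, a dynein light chain gene, rose by 4.55 ± 0.31 (adjusted p = 0.000276), and Eno1b, an enolase copy, fell by 6.38 (standard error 0.22, adjusted p = 1.01e-05), but 54.9% and 80.6% of their 75-base positions were shared with other genes. By class, 37.2% of 282 immunoglobulin and T cell receptor segments and 23.6% of 835 pseudogenes were called in either direction, against 9.3% of 11807 protein-coding genes. The directions differed by class, with 24 segments higher and 81 lower, and 31 pseudogenes higher and 166 lower. Among protein-coding genes 606 were higher and 492 were lower, so the excess of lower genes in the whole table was not found in this class.

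Of 24 genes tied to suppression by myeloid cells, 17 were tested, of which 1 was higher and 1 was lower, close to the shares of 5.15% and 5.93% over all genes. Vegfa, the vascular growth factor, was at 6.30, 14.6 and 15.8 TPM in APCmin and at 2.01, 2.66 and 2.73 TPM in BALB/c (log2 fold change 1.85 ± 0.34, adjusted p = 0.0157). Tgfb1, the cytokine TGF-beta 1, was at 159, 77.6 and 184 TPM in APCmin and at 331, 311 and 306 TPM in BALB/c, and fell by 1.26 (standard error 0.31, adjusted p = 0.0361). Arg2, which breaks down arginine, was at 8.98, 57.4 and 49.7 TPM in APCmin and at 8.85, 9.15 and 11.3 TPM in BALB/c, so APCmin library 1 lay among the BALB/c values (log2 fold change 1.53 ± 0.64, adjusted p = 0.122). Without APCmin library 1 its adjusted p was 0.000726. Vegfa lost its call without any 1 of the BALB/c libraries (adjusted p = 0.0684, 0.0626 and 0.0589), as did Tgfb1 (0.119, 0.113 and 0.0977), which also fell short of 2-fold without APCmin library 2 and lost its call after rescaling (adjusted p = 0.0625). Arg1, Nos2 and Il10, named as the usual suppressor genes after their values were seen, were at most 0.95 TPM in every library and were not tested. Of 14 tested Wnt pathway genes 0 were called by limma, with 4 at an unadjusted p under 0.05, and Apc itself was at 25.2, 16.5 and 25.1 TPM in APCmin and at 28.8, 26.5 and 26.7 TPM in BALB/c (log2 fold change -0.31 ± 0.19, adjusted p = 0.248). Gene-level values do not separate the mutant from the intact Apc transcript.

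Glucose use and stress genes contained smaller sets of higher members. Of 24 glycolysis and hypoxia genes 4 were higher and 0 were lower, beside 5.15% and 5.93% over all genes. The list's median was 0.69. Slc2a3, a glucose transporter, rose by 2.13 ± 0.46 (adjusted p = 0.0273), and Gapdh, a glycolytic enzyme often used as a control gene, was at 561, 1065 and 847 TPM in APCmin and at 361, 367 and 347 TPM in BALB/c (log2 fold change 1.15 ± 0.23, adjusted p = 0.0222). Both lost their calls without any 1 of the BALB/c libraries, with adjusted p between 0.0807 and 0.0906, Slc2a3 also without APCmin library 3 (adjusted p = 0.0542), and Gapdh fell short of 2-fold without APCmin library 2. Of 24 immediate early and heat shock genes 5 were higher and 0 were lower, and these were Ier3, Hsp90aa1, Hspa8, Hsph1 and Hspd1, named after the count was seen. All 5 lost their calls without each BALB/c library (adjusted p between 0.0702 and 0.13). Of the 13 mitochondrially encoded genes 0 were called by limma, with 0 at an unadjusted p under 0.05, and they made up 5.48%, 4.03% and 3.68% of TPM in APCmin and 3.98%, 3.81% and 3.57% in BALB/c.

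The other splenic sorts of the same 2 kinds of mouse share no libraries with the monocytic sorts. Same-numbered APCmin monocytic and granulocytic libraries nevertheless deviated together (r between 0.415 and 0.634), so the sorts cannot be taken as independent samples. Of the 733 higher genes, 297 were also higher in the granulocytic sorts, which is 40.5% of the monocytic list and 64.8% of the granulocytic list of 458. In those sorts 3.23% of 14160 genes were higher and 7.66% were lower. With the combined sorts 402 were shared, or 54.8% of the monocytic list and 71.4% of the other 563, where 4.01% of 14043 genes were higher and 5.47% were lower. APCmin combined libraries 1 and 2 had Xist, the X-inactivation transcript, at 0.1 and 0.05 TPM, against 325 TPM in the third and 364 to 428 TPM in the BALB/c combined libraries. In the monocytic libraries Xist was at 259 to 398 TPM in APCmin and at 384 to 488 TPM in BALB/c, and the part of this difference in the overlap was not tested. Of the 844 lower genes, 448 were also lower in the combined sorts, or 53.1% and 58.3% of the 2 lists. With the granulocytic sorts 523 were shared, or 62.0% and 48.2%. Ltf and the pair of S100a8 and S100a9 were less separated in the granulocytic sorts. The pair made up 1.82%, 9.63% and 4.33% of TPM in APCmin granulocytic sorts and 1.71%, 1.83% and 1.18% in BALB/c granulocytic sorts, which overlapped. Ltf was at 1312, 10400 and 3039 TPM in APCmin granulocytic sorts and at 1191, 1712 and 978 TPM in BALB/c granulocytic sorts, which overlapped (log2 fold change 1.46, not called). The BALB/c monocytic sorts thus held less Ltf (244 to 459 TPM) than the BALB/c granulocytic sorts, while the APCmin ranges of the 2 sorts overlapped. The difference between the sorts' fold changes was 2.77 ± 0.91 log2 units for Ltf and did not pass the interaction test (limma, adjusted p = 0.478), nor did that of Cxcr2 at 3.54 ± 0.97 (adjusted p = 0.379). That test took same-numbered libraries of the sorts as unpaired.

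Across 15183 genes the kind of mouse and the sort interacted in 11, or 0.0724%, of which 3 were in the direction of higher and 8 of lower in the monocytic sorts, and 1181 had an unadjusted p under 0.05. Same-numbered monocytic and granulocytic libraries deviated together in APCmin (r between 0.415 and 0.634) and little in BALB/c (0.06 to 0.095). With a replicate block within each kind of mouse, chosen after the data were seen, 110 genes were called, and without APCmin monocytic library 3 there were 31. Siglech was at 11.74, 13.96 and 10.92 TPM in APCmin granulocytic sorts and at 12.3, 9.02 and 6.85 TPM in BALB/c granulocytic sorts, so the groups overlapped there (interaction -2.90 ± 0.30 log2 units, adjusted p = 0.0018). Adgrg5, an adhesion receptor gene of leukocytes, was at 5.90, 8.95 and 11.2 TPM in APCmin monocytic sorts and at 85.5, 70.5 and 120.4 TPM in BALB/c monocytic sorts. In the granulocytic sorts it was at 8.58, 8.07 and 8.71 TPM in APCmin and at 7.54, 8.80 and 8.83 TPM in BALB/c (interaction -3.28 ± 0.31, adjusted p = 0.00159). Colec12, a scavenger receptor gene, was at 0.59, 0.26 and 0.89 TPM in APCmin monocytic sorts and at 96.2, 74.9 and 97.7 TPM in BALB/c monocytic sorts, a larger difference than in the granulocytic sorts (interaction -3.69 ± 0.24, adjusted p = 0.000136).

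**Figure D5:**
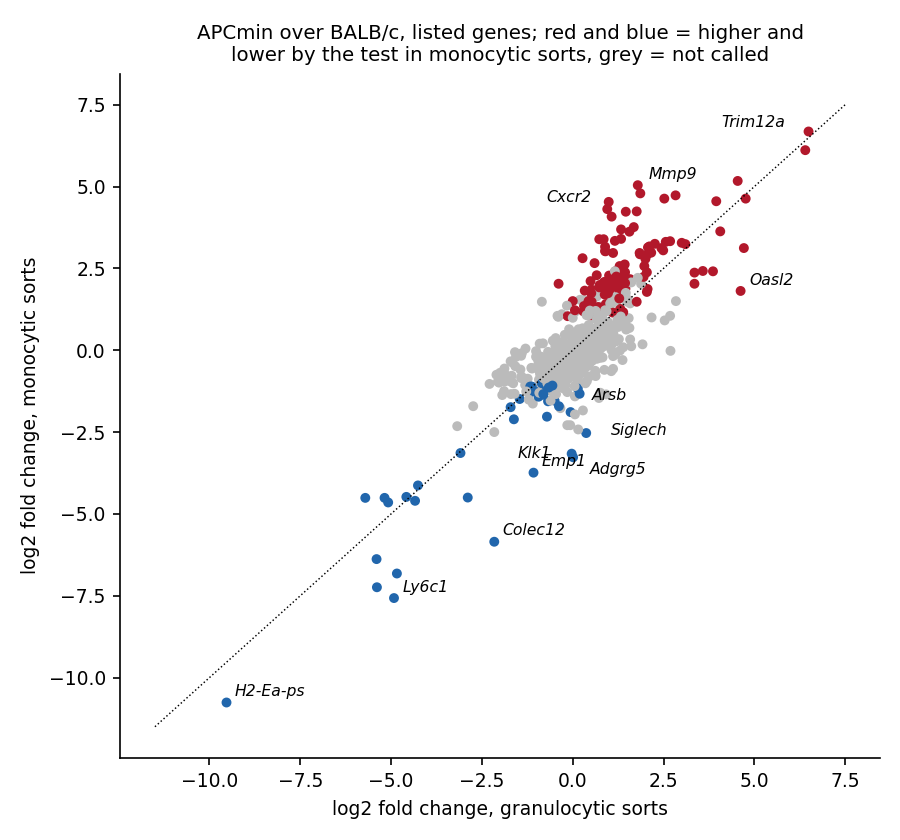
Log2 fold change, APCmin over BALB/c, in monocytic sorts (vertical axis) against granulocytic sorts (horizontal axis) for the genes of the lists and the named genes; red and blue points were called in the monocytic sorts, grey points were not, and the dotted line marks equal values. H2-Ea-ps and Trim12a lie at the extremes of both axes, and Colec12, Adgrg5, Klk1 and Siglech lie below it.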

How the data were processed

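RNA of sorted cells was sequenced as 75-base single reads from stranded mRNA libraries, per the labels' protocols. The authors deposited TPM values, made with STAR 2.6.1c and RSEM on mm10, per the submitters' processing notes. Neither the version of RSEM nor its gene annotation is stated there. TPM sums to 1000000 in each library and keeps no counts, so the depth is unknown. Of 53465 gene IDs, 53274 were matched to names, 26 symbols were restored from dates, and 220 entries had a repeated symbol. A search for identical libraries found 0 pairs.

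Genes with at least 1 TPM in at least 3 of the 6 libraries were fitted on log2(TPM + 1) with limma 3.58.1 (R 4.3.3; trended prior, Benjamini-Hochberg adjustment over all genes). Calls required a difference of 2-fold or more with an adjusted p below 0.05. The interaction was fitted over the 12 monocytic and granulocytic libraries. Sums were compared by two-sided exact permutation in Python 3.11.15. The fit was tested on simulated data. Genes were named by rule: the markers, the 12 largest and 12 smallest called changes without overlap at a mean of 20 TPM, up to 6 a list at 5 TPM, and up to 6 interaction genes in each direction, leaving out provisional symbols, receptor segments and pseudogenes among the largest and smallest. Members and lists were chosen with earlier results of these data known. The alternatives were another pseudocount, other filters, no fold minimum, rescaling, a fit of all 39 libraries, a replicate block, array weights, no trend, and leaving out each library.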

Additional observations from a re-analysis of the deposited data

Results flagged for a closer look

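The APCmin over BALB/c difference was not the same in monocytic and granulocytic sorts in 11 genes by limma's interaction test, 8 of them more negative and 3 more positive in the monocytic sorts. The 3 positive ones have provisional symbols and are not named, and of the negative ones the 6 that reach a mean of 20 TPM are given. The interaction was -3.69 log2 units for Colec12, -3.28 for Adgrg5 and -2.90 for Siglech, whose values stand in the report. Klk1, a kallikrein gene, had an interaction of -3.13 ± 0.28 (adjusted p = 0.00126). It was at 1.76, 1.88 and 2.01 TPM in APCmin monocytic sorts and at 19.6, 22.9 and 34.0 TPM in BALB/c monocytic sorts, with log2 fold changes of -3.16 in monocytic and -0.03 in granulocytic sorts. Of its 75-base positions 12.1% were shared with other genes. Emp1, an epithelial membrane protein gene, had an interaction of -2.66 ± 0.30 (adjusted p = 0.0044) and lost its call with a pseudocount of 0.1 (adjusted p = 0.36). Arsb, which encodes the lysosomal enzyme arylsulfatase B, had an interaction of -1.83 ± 0.17 (adjusted p = 0.00126), with 13.4, 13.9 and 16.2 TPM in APCmin monocytic sorts and 63.2, 54.3 and 52.7 TPM in BALB/c monocytic sorts.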

How the results depend on the processing

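Of the 80 genes named, 99 of the values with a library left out lost their call, mostly without a BALB/c library, and 6 gained one; 373 kept their direction and side of the threshold. Under the other alternatives 41 lost and 9 gained a call and 669 kept it. Ly6c2, uncalled throughout, had log2 fold changes from -0.21 to 0.36 with a library left out, changing sign to -0.21 without APCmin library 3 and to -0.06 without BALB/c library 2. The causes of these changes were not tested. Without a filter there were 441 higher and 514 lower genes, with 7 mature neutrophil, 5 erythroid, 5 G1/S, 0 classical monocyte and 3 dendritic cell calls. Without a fold minimum 1964 genes were lower. Rescaling gave 516 lower genes, 0 classical monocyte and 3 dendritic cell calls. The classical monocyte calls were 14 in the fit of all 39 libraries, 6 with array weights and 1 without a trend. The interaction calls were 6 with a pseudocount of 0.1, 7 at a minimum of 5 TPM, 224 with all 39 libraries, 110 with the replicate block within each kind of mouse (added after seeing the data), 211 with array weights, whose estimation stopped short of its convergence tolerance in 1 fit, and 17 without a trend. With a library left out the counts ran from 280 to 904 for higher genes, 408 to 1274 for lower genes, 8 to 31 for the interaction, 9 to 19 for granule, 3 to 23 for mature neutrophil, 1 to 19 for erythroid, 1 to 16 for G1/S, 0 to 11 for classical monocyte and 2 to 7 for dendritic cell genes. Same-numbered APCmin and BALB/c monocytic libraries correlated at 0.134, 0.028 and 0.152 in their deviations, so the numbers were not taken to pair them. A replicate block gave 780 higher and 922 lower genes, and 9 classical monocyte calls. Depth is unknown, so its limit on low genes could not be given.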
